A study of Mus musculus with 33 samples.

Results

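The genes described here encode the proteins of the cytoplasmic ribosome. They were taken by symbol, as every gene whose name starts with Rpl or Rps followed by a digit, plus Rplp0, Rplp1, Rplp2 and Rpsa, leaving out pseudogene names, the Rps6k kinases and Rps19bp1. This gave 87 of the 21844 genes counted in the series, 53 of the large and 34 of the small subunit. Of these, 77 are the standard ribosomal protein genes and 10 are paralogs or copies whose names end in l, l1 or al, together with Rps23rg1. The libraries came from mouse embryonic stem cells that differentiated in serum-free medium as floating aggregates (embryoid bodies). They were dispersed on day 2 and kept until day 4 with activin A, a TGF-β family ligand, with SB-431542, an inhibitor of the activin receptors, or with neither (SFM). Most libraries were made by DP-seq, in which cDNA is amplified with a defined collection of heptamer primers. The question put to the primer sets, inputs and methods was how evenly such amplification recovers a transcriptome, and 3 of the primer sets were designed to hold down ribosomal transcripts; the labels do not say whether these are ribosomal RNA, ribosomal protein mRNA or both.

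Primer sets 1, 2 and 3 each had 1 library from 500 pg of mRNA of cells given activin at 3 ng/mL (AA3). They were set against usual DP-seq, for which the 2 libraries from 1 ng and the 2 from 100 pg of AA3 mRNA were used. The dilution series held 2 libraries each from 1 pg, 10 pg, 50 pg, 100 pg, 1 ng and 10 ng of AA3 mRNA. The method set held 2 SMART-seq libraries at activin 100 ng/mL (AA100) and 2 at AA3, 2 DP-seq libraries at AA100 and 1 at AA3, both methods from 50 pg, and 1 standard RNA-seq library at AA100 and 2 at AA3 from 20 ng. SMART-seq amplifies full-length cDNA, here for 13 cycles, and the DP-seq libraries of this set used the original collection of 44 primers. The dose set, made by DP-seq, held 1 SB-431542 library (SB), 2 SFM, 1 AA3, 2 at activin 15 ng/mL (AA15) and 1 AA100. The labels call every pair but SFM technical replicates, and none of them tells of separate cultures, so the tests below set differences against a spread that is technical. For a group with 1 library the fit takes its spread from the groups that have 2.

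Ribosomal proteins are made in near-equal numbers and assembled on ribosomal RNA in the nucleolus, and apart from the stalk proteins each ribosome holds about one of each. Their mRNAs are among the most abundant in growing cells. Many start at a cytidine followed by an unbroken run of pyrimidines, the terminal oligopyrimidine (TOP) motif, through which mTOR signalling sets their translation. In RefSeq's annotation (build GRCm38.p6), 66 of the 87 genes had a listed start site. A C within 5 bases of the annotated start, on the gene's own strand, was sought that began at least 6 unbroken C or T bases. It could lie inside a longer run, also one that opened with T. Such a C was present in 27 of the 66, or 40.9%. The share was 10.0% of 17492 protein coding genes and 5.80% of 69 mitochondrial ribosomal protein genes, whose proteins serve the separate ribosome of that organelle. A C at the annotated start itself, followed by 4 pyrimidines, was present in 13 of the 66, or 19.7%, against 2.16% of all protein coding genes and 0 of the 69 mitochondrial ribosomal protein genes. The following 30-base windows, 10 bases before the start and 20 from it, are shown as examples of genes with the run and without it. Capitals mark the longest run of C and T. Rps6, on the minus strand at chr4:86857348-86857377, encodes the small subunit protein phosphorylated downstream of mTOR. Rpl13a lies on the minus strand at chr7:45128726-45128755 and Rps24 on the plus strand at chr14:24490668-24490697. Rps3, on the minus strand at chr7:99483690-99483719, and Rps4x, on the minus strand at chrX:102189372-102189401, have no such run near the listed start.
Rps6: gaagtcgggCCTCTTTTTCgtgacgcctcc
Rpl13a: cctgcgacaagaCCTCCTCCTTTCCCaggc
Rps24: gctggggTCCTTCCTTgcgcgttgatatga
Rps3: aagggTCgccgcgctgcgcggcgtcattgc
Rps4x: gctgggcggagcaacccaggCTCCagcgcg
An annotated start can be off by some bases, so a window without the run says only that these letters are not in it.

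Library totals ran from 427556 counts at 1 pg to 30609013 in SMART-seq. A count of 3, taken as the floor of detection, was worth 7.02 CPM (counts scaled to a common library total) in the smaller 1 pg library and 0.0980 CPM in the largest SMART-seq library. At least 3 of the 4 primitive streak markers T, Mixl1, Eomes and Evx1 were detected in every library, and their sum was lowest in SB, at 2.13 CPM, while 5 epiblast markers summed to 85.0 to 1132 CPM. Between the 2 SFM libraries the log2 ratio had an SD of 2.68 over 78 ribosomal protein genes, against 0.52 between the AA15 libraries. SFM replicate 2, the library labelled as carrying spiked-in yeast transcripts, therefore stands apart, and the main results that rest on it are also given without it.

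The deposited values are counts of unique reads per RefSeq transcript, which bears on these genes because many have near-identical copies in the genome or several listed transcripts. Of the 77 standard genes, 62 had at least 135 CPM in standard RNA-seq at AA3, with a median of 1214 CPM. The other 15 lay below 100 CPM, a line drawn after the values were seen, with a median of 35.2 CPM. All 7 standard genes for which the tables list several transcripts were among those 15 (Rpl19, Rpl30, Rpl34, Rpl35a, Rpl38, Rps24 and Rps27a), and 8 of the 70 with a single listed transcript were. Rplp2, a protein of the stalk that recruits translation factors, had 3.26 and 3.65 CPM there, while its stalk partners Rplp0 and Rplp1 had 2142 and 2149 CPM and 1432 and 1421 CPM. Rps27a, which encodes a ubiquitin fused to a small subunit protein, had 37.2 and 33.2 CPM. The levels of these 15 genes and of the copies are therefore treated as uncertain; the part of listed transcripts or shared sequence in their low counts was not tested. In transcripts of the reference annotation, the 62 higher genes shared a median of 58.2% of their 32-base words with other genes, the 15 lower ones 54.7% and the 8 of these with a single listed transcript 44.3%. Rpl3l, a muscle paralog of Rpl3, had counts in 1 library only, at 0.0963 CPM.

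Ribosomal protein genes took 24.7% to 27.5% of all counts in the 4 SMART-seq libraries, against 6.90% at AA100 and 7.70% in both AA3 libraries of standard RNA-seq. The 3 DP-seq libraries of the same comparison held 6.01% and 5.62% at AA100 and 6.95% at AA3. The primer set libraries held 3.25%, 2.95% and 2.38%, below all 4 usual DP-seq libraries at 7.15% to 9.33%. Large subunit genes supplied 58.7% to 60.2% of these counts in SMART-seq, 63.2% to 66.5% in DP-seq from 50 pg and 59.6% to 60.6% in standard RNA-seq. The 95% Wilson intervals of these shares, which cover counting error only, are narrow (6.88% to 6.91% for standard RNA-seq at AA100).

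**Figure D1:**
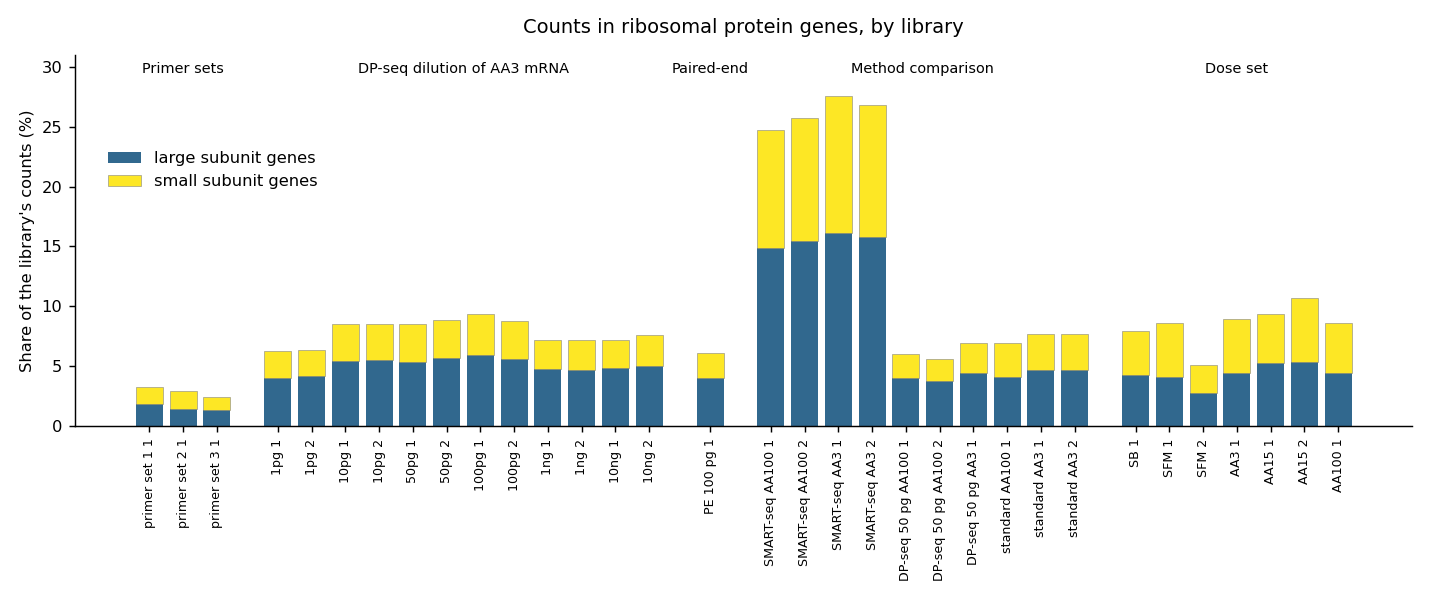
Share of each library's counts (%) in ribosomal protein genes, split into large and small subunit genes, for all 33 libraries; labels give the group and replicate. The SMART-seq libraries reach 24.7% to 27.5%, while the primer set libraries lie between 2.38% and 3.25%.

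At AA3, levels per kilobase of coding sequence spread least over genes in standard RNA-seq. The 62 genes, which were chosen by their level in that method, had a median of 2248 CPM per coding kilobase at AA3 and an SD over genes of 0.82 on the log2 scale, and the choice itself lowers that SD. Over all 77 standard genes the SD at AA3 was 2.62 in SMART-seq, 3.45 in DP-seq from 50 pg and 2.35 in standard RNA-seq. At AA100 standard RNA-seq did not spread less than SMART-seq, with SDs of 2.58 in each, beside 3.35 in DP-seq. In standard RNA-seq at AA3 the highest gene was Rpl41, which encodes a very short peptide at the subunit interface, at 21932 CPM per coding kilobase. Reads from untranslated sequence count too and so raise the value of a gene of 75 coding bases. The lowest was Rpl29 at 302 CPM per coding kilobase. The SD over the same 62 genes was 1.12 in SMART-seq at AA3, 2.17 in DP-seq from 50 pg at AA3, 2.00 to 2.72 across the dilution series and 2.51, 2.84 and 3.09 with primer sets 1, 2 and 3. The 5 highest genes held 17.1% of all ribosomal protein counts in SMART-seq, 42.9% in DP-seq and 17.5% in standard RNA-seq at AA3. In usual DP-seq the counts were led by Rpl23 and Rpl23a, a pair of unrelated large subunit proteins of which Rpl23a lies at the exit of the peptide tunnel. Rpl23 had 11026 and 12808 CPM and Rpl23a 11951 and 11079 CPM from 10 ng, while Rpl13 had 16.4 and 12 CPM and Rps26, at the exit of the mRNA channel, 4.50 and 3.78 CPM. In standard RNA-seq at AA3 Rpl13 had 1712 and 1736 CPM.

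SMART-seq placed nearly all of these genes above standard RNA-seq, in both subunits and at both doses. Of 84 genes tested (Rpl10l, Rpl39l and Rpl3l were filtered out for low counts), 82 rose and none fell at AA3, with a median log2 change of 3.40, and 82 rose and none fell at AA100, with a median of 3.48 (edgeR quasi-likelihood test, Benjamini-Hochberg adjusted p under 0.05 over 14072 genes). At AA3, 37.9% of all genes tested were called, 22% higher and 15.9% lower, and the median change of all genes was −0.22. At AA100, 30.8% were called, 18.1% higher and 12.7% lower, with a median of −0.19. The medians of large and small subunit genes were 3.19 and 3.51 at AA3 and 3.32 and 3.67 at AA100. The same 81 genes were called higher at both doses, as were 2441 of all 14072. These changes are relative to the TMM scaling of the fit. When libraries were scaled by their totals instead, a choice made after seeing the data, the median of all genes was −1.76 at AA3 and that of the ribosomal protein genes 1.85, with 75 called higher and 1 lower. Of all 14072 genes 1535 were called higher and 5873 lower at AA3 in that scaling. There Rpl19 fell at AA3, and Rps2 and Rps26 fell at AA100.

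Rps19, whose mutation causes Diamond-Blackfan anaemia in people, had the largest rise at AA3. It had 2541 and 2391 CPM in SMART-seq and 227 and 222 CPM in standard RNA-seq, a log2 change of 5.01 ± 0.27 (SE, adjusted p = 3.9e-06). The libraries of the methods did not overlap. Rpl36, a large subunit protein, had 4480 and 4218 CPM in SMART-seq and 469 CPM in each standard library (4.76 ± 0.15). Rpl34 had 108 and 99.0 CPM in SMART-seq and 10.6 and 11.1 CPM in standard RNA-seq (4.80 ± 0.23), and the copy Rpl32l 34.8 and 34.6 CPM, against 4.19 and 2.79 CPM (4.86 ± 0.38). At AA100 the largest called rises with at least 50 counts were those of Rpl22l1, with 163 counts in SMART-seq and 1 count in the standard library, a CPM ratio of 31.2 (95% counting interval 5.52 to 1241), Rps19 (6.01 ± 0.40), Rps14, a protein of the small subunit platform (5.64 ± 0.13), and Rpl39, which lines the exit of the peptide tunnel (5.49 ± 0.31). For Rpl39 the SMART-seq values were 1521 and 1615 CPM at AA100, against 92.3 CPM in the standard library, but 2085 and 2051 CPM at AA3, against 597 and 584 CPM in standard RNA-seq. Rps2, at the entry of the mRNA channel, changed least of the abundant genes, with 758 and 437 CPM in SMART-seq and 888 and 903 CPM in standard RNA-seq at AA3.

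Shorter genes rose more. Over the 62 higher genes, the log2 change at AA3 fell with coding length (Spearman's rho = −0.46, across genes, which share their libraries), and the 25 genes of up to 450 coding bases had a median change of 3.65, against 3.18 for the 37 longer ones. The pattern was not particular to the cytoplasmic ribosome. The 78 mitochondrial ribosomal protein genes had a median change of 3.30 (71 higher, 0 lower) and a rho of −0.65 with coding length, and 922 other genes of up to 450 coding bases had a median of 3.12. In contrast, 207 other genes with standard RNA-seq levels from the 10th percentile of these 62 genes upward had a median of −0.29, and 24 ribosome biogenesis genes, which encode nucleolar assembly factors, had a median of 0.60 with 12 higher and 7 lower. Among 15 other translation genes with known or likely TOP mRNAs, 10 rose and 5 fell. Fau and Rack1, ribosomal proteins whose names lie outside the naming rule, both rose at AA3, by 2.64 and 2.37 on the log2 scale. The part of transcript length or of the RNA isolation in these differences was not tested.

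DP-seq from 50 pg moved these genes in both directions against standard RNA-seq. At AA3, 25 rose and 39 fell of 84, with a median of −0.41, where 24.4% of all genes were called (13.2% higher and 11.3% lower) and the median of all was −0.40. At AA100, 25 rose and 43 fell (median −0.75), where 23.9% of all genes were called, 11.8% higher and 12.1% lower (median −0.21). With library totals the splits were 13 and 57 at AA3 and 12 and 58 at AA100. Those of all genes were 966 and 3011 at AA3 and 898 and 3422 at AA100. In that scaling the medians were −1.215 at AA3 and −1.535 at AA100, beside −1.204 and −0.994 for all genes. Large subunit genes divided as 17 higher and 23 lower at each dose, and small subunit genes as 8 and 16 at AA3 and 8 and 20 at AA100. Of the genes called at both doses, 20 rose at both, 35 fell at both and 3 were called in opposite directions. Among all 14072 genes 1421 rose at both, 1032 fell at both and 22 were called in opposite directions.

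Rps13, a small subunit protein, had 6862 CPM in DP-seq and 685 and 686 CPM in standard RNA-seq at AA3, a log2 change of 4.13 ± 0.07 (adjusted p = 6.9e-08), and 5687 and 5744 CPM, against 356 CPM, at AA100 (4.79 ± 0.09). Rpl23a had 8881 CPM in DP-seq, against 1597 and 1585 CPM (3.29 ± 0.07). Rpl8, which lies near the peptidyl transferase centre, had 6264 CPM, against 1704 and 1722 CPM (2.68 ± 0.13). These rises, with that of Rps19 (2.27 ± 0.27), were the largest at AA3, and the same 4 genes led at AA100. Among the largest falls at AA3 were those of Rpl38, Rps27a and Rpl13 (−5.25 ± 0.19). Rpl38 and Rps27a had 3 counts each in DP-seq and lay 135-fold (95% counting interval 46.0 to 656) and 125-fold (42.7 to 609) lower in CPM. Rpl38, required in mice for the translation of a subset of Hox mRNAs, had 0.281 CPM in DP-seq, against 37.2 and 38.6 CPM in standard RNA-seq. Only Rpl13 of these 3 was well counted by standard RNA-seq, with 25.8 CPM in DP-seq. At AA100 the falls were led by Rps27a, with 2 counts in DP-seq (188-fold lower, 51.3 to 1570), Rps26 (−6.04 ± 0.11) and Rps15 (−5.45 ± 0.14).

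**Figure D2:**
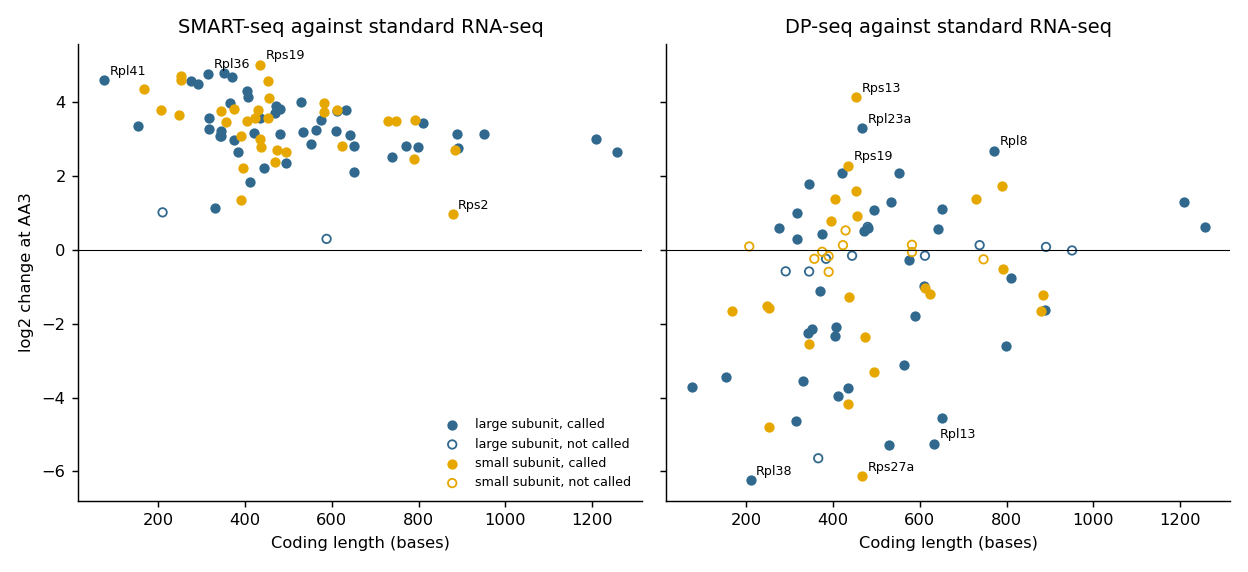
log2 change at AA3 of each ribosomal protein gene with a known coding length, against that length in bases, for SMART-seq (left) and DP-seq from 50 pg (right), each against standard RNA-seq; filled points passed the test. SMART-seq changes lie above 0 and are larger for short genes (rho −0.46 over the 62 higher genes), and DP-seq changes run from −6.23 for Rpl38, fitted from 3 counts, to 4.13 for Rps13.

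The 3 primer sets lowered most ribosomal protein genes and raised a minority by large amounts. Against usual DP-seq, primer set 1 had 17 genes higher and 52 lower of 83 tested, with a median log2 change of −1.64, primer set 2 had 20 higher and 44 lower (−1.69), and primer set 3 had 16 higher and 55 lower (−2.31). Of all 11559 genes, 56.4%, 63.9% and 61.6% were called in the 3 comparisons, with medians of −0.04, −0.43 and −0.40. The calls were therefore common among all genes, and the ribosomal protein genes differ from them in the balance of directions: of all genes 28.2%, 29.4% and 28.7% were called higher and 28.1%, 34.5% and 32.9% lower. Under primer set 3 the small subunit had a lower median (−3.05) than the large (−1.87); under primer set 2 the order was the other way (−0.83 and −2.13), and under primer set 1 they lay closer together (−1.74 and −1.42). With library totals the medians for primer sets 2 and 3 were −2.29 and −3.16, and those of all genes −1.06 and −1.25. The calls were then 15 higher and 55 lower for set 2 and 11 higher and 63 lower for set 3. In that scaling 65.8% of all genes were called for set 2 and 65.8% for set 3. All genes leaned lower there too, with 2480 higher and 5121 lower for set 2 and 2151 and 5452 for set 3. The 3 comparisons share their usual DP-seq libraries, and each primer set had 1 library, so no spread within a set was measured.

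Rpl23, the highest gene of usual DP-seq, had 1816, 74.5 and 51.3 CPM with primer sets 1, 2 and 3, against 10818 to 12398 CPM in the 4 usual libraries. Rps19 had 6.50, 0.398 and 526 CPM, against 2024 to 2877 CPM, the largest fall with primer set 2 (adjusted p = 3.6e-08). The 2 counts behind the value of set 2 put it 5982-fold below the usual libraries, with a 95% counting interval of 1656 to 49394. Each primer set lowered it, to levels far apart. Rpl12, at the base of the stalk, had 64.2, 19.5 and 3.91 CPM, against 987 to 4073 CPM. Rpl8 had 275, 16.7 and 68.3 CPM, against 1322 to 4743 CPM. Rps25 had 242, 356 and 0.930 CPM, against 516 to 1209 CPM, its largest fall with primer set 3. Rps29, a zinc-binding protein of the small subunit head, had 1 count (0.186 CPM) with primer set 3, against 77.4 to 130 CPM, 606-fold lower (109 to 23952), and Rps28 had 0.996 CPM with primer set 2, against 334 to 823 CPM (−8.32 ± 0.35). Rpl30 with primer sets 1 and 3 and Rplp2 with set 1 were also among the 4 largest falls of their comparisons.

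Some genes were high with one primer set only. Rps9, which lies at the entry of the mRNA channel, had 49.2, 6397 and 15.4 CPM with primer sets 1, 2 and 3, against 1378 to 1955 CPM in usual DP-seq, and alone held 21.7% of the ribosomal protein counts of primer set 2. Rps20, of the small subunit head, had 6.84, 233 and 5144 CPM, against 155 to 333 CPM, and rose by 5.33 ± 0.08 with primer set 3, where it held 21.6% of these counts. Rpsa, a small subunit protein also known as the laminin receptor precursor, had 3193, 29.1 and 6.70 CPM, against 514 to 858 CPM. Rps9 and Rps20 were the highest ribosomal protein genes of sets 2 and 3, and Rpsa was the second highest of set 1, after Rpl5 at 3208 CPM. Rpl41 rose with primer sets 1 and 3 (3.25 ± 0.10 and 4.50 ± 0.10), at 1653 and 2152 CPM, and had 10.6 CPM with set 2, against 142 to 199 CPM in usual DP-seq. Rps2 had 1610, 3.59 and 2.60 CPM, against 225 to 397 CPM, and Rpl10a, of the L1 stalk, 911, 3293 and 38.7 CPM, against 1154 to 2594 CPM.

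Rpl26 and Rpl38, which usual DP-seq hardly counted, rose with 1 or more sets. Rpl26, which lies at the tunnel exit, rose with all 3, by 7.01 ± 0.19, 9.70 ± 0.17 and 4.77 ± 0.29, to 84.9, 349 and 9.86 CPM, against 0.489 to 0.826 CPM in usual DP-seq. Rpl38 had 547 CPM with primer set 3, 0.834 CPM with set 1 and 0 counts with set 2, against 0 counts in 3 of the 4 usual libraries and 1.22 CPM in the other. Its rise with set 3 (13.28 ± 0.44) depends on the prior count of the fit. Rps26 (7.54 ± 0.32), Rpl32 (4.73 ± 0.23) and Rpl27 (2.86 ± 0.12) rose with primer set 2, and Rpl35a (5.09 ± 0.32) and Rpl18 (3.39 ± 0.23) with primer set 1. Rack1, which is part of the small subunit but outside the naming rule, rose with every set, at 2263, 5784 and 13127 CPM, against 611 to 772 CPM. The 28S ribosomal RNA entry Rn28s1 had 1090, 174 and 214 CPM, against 419 to 2367 CPM, and was called lower with primer sets 2 and 3 (−2.05 ± 0.24 and −1.54 ± 0.23) and not with set 1 (adjusted p = 0.81).

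**Figure D3:**
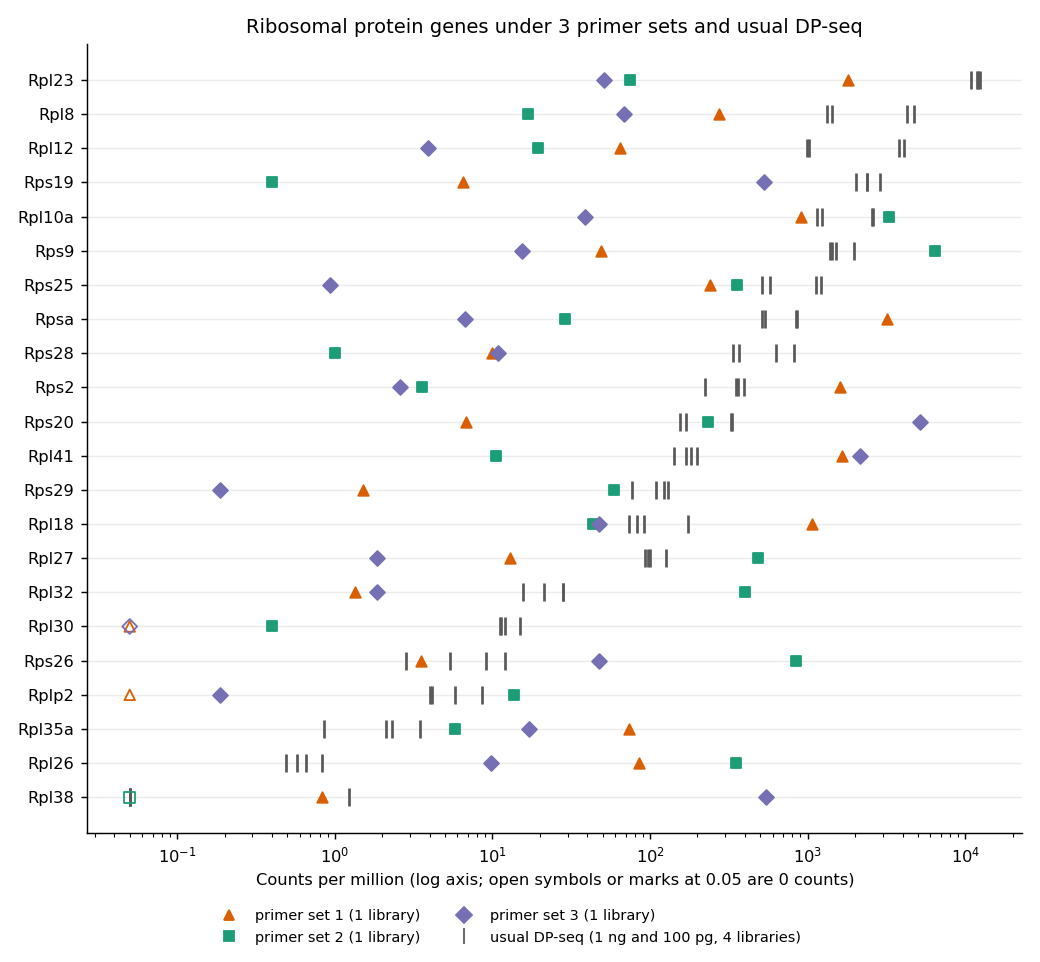
CPM (log axis) of ribosomal protein genes among those with the largest called changes under any primer set and of Rpsa, Rps9, Rps2 and Rpl10a, in the 1 library of each primer set and the 4 libraries of usual DP-seq, ordered by the usual level. Rpl23, Rpl8 and Rpl12 lie below the usual libraries with all 3 sets, while Rps9, Rps20 and Rpsa are high with 1 set each.

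Compared with each other, the sets differed at most ribosomal protein genes. Primer set 1 had 35 genes higher and 29 lower than set 2, where 59.4% of all genes were called, 31.7% higher and 27.8% lower. It had 39 higher and 25 lower than set 3, where 57.5% of all genes were called (30.5% higher, 27% lower). Set 2 had 35 higher and 31 lower than set 3, where 55.2% were (27.1% higher, 28.1% lower). Rps2 was higher with set 1 than with set 2 (8.15 ± 0.48) and set 3 (8.40 ± 0.50), as was Rpsa (6.12 ± 0.15 and 8.03 ± 0.17). Rps9 was lower with set 1 than with set 2 (−7.68 ± 0.25), and higher with set 2 than with set 3 (8.48 ± 0.27). Small subunit genes had medians of 1.55 for set 1 against set 3 and 1.60 for set 2 against set 3, while the large subunit medians were 0.46 and −0.22.

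Across the inputs of the dilution series ribosomal protein genes were more often higher than lower at 100 pg and below, relative to 10 ng. No gene of the 80 tested was called at 1 ng (6 at unadjusted p under 0.05; DESeq2 called 3), where no gene at all of 10817 was called (0% background; 136 at unadjusted p under 0.05). At 1 pg 24 rose and 4 fell, where 24.9% of all genes were called, 8.96% higher and 15.9% lower. At 10 pg 17 rose and none fell (8.37% of all genes called, 3.53% higher and 4.83% lower). At 50 pg 4 rose and none fell (1.08%, with 0.924% higher and 0.157% lower), and at 100 pg 7 rose and none fell (0.989%, with 0.906% higher and 0.0832% lower). The median log2 changes were 0.38, 0.82, 0.49, 0.86 and 0.18 at 1 pg, 10 pg, 50 pg, 100 pg and 1 ng, and those of all genes −1.43, −0.12, −0.03, 0.00 and −0.01. Large and small subunit medians lay farthest apart at 100 pg, at 0.94 and 0.80. The spread of the 10 pg and 1 pg pairs entered all of these tests, and without these inputs 49 of 78 rose and 1 fell at 100 pg, 41 rose at 50 pg, and 10 rose and 3 fell at 1 ng, in fits where 35.0%, 36.7% and 3.75% of all 10600 genes were called. The calls also turned on single libraries, in fits for which no share of all genes is given. At 1 pg they numbered 10 without either 10 ng library and 36 without 1 pg replicate 1. At 10 pg they numbered 2 without either 10 ng library and 43 without either 1 pg library, which gave 31 at 50 pg and 43 at 100 pg. Without any 1 of the libraries of 50 pg, 100 pg, 1 ng or 10 ng a single call was left at 50 pg, and 1 to 3 were left at 100 pg.

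The direction at 1 pg depended on the scaling. With library totals 7 genes rose and 21 fell there, or 35.0% of the 80, and of all genes 35.0% were called too (485 higher and 3306 lower). The median was −0.60, and that of all genes −2.42. In the share of counts the genes took 6.23% and 6.33% at 1 pg, 8.49% and 8.55% at 10 pg, 8.54% and 8.87% at 50 pg, 9.33% and 8.79% at 100 pg, 7.18% and 7.15% at 1 ng and 7.18% and 7.57% at 10 ng. The 1 pg libraries, of 427556 and 448933 counts, missed 14 and 16 of the 87 genes, and the 10 ng libraries 6 and 2.

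Rpl8 carried the clearest difference. It had 4004 and 5012 CPM at 1 pg, 5453 and 4756 CPM at 10 pg, 4383 and 4322 CPM at 50 pg, 4277 and 4743 CPM at 100 pg, 1322 and 1424 CPM at 1 ng and 1083 and 1235 CPM at 10 ng. All 8 libraries of 100 pg or less lay above the other 4, and its rise passed the test under each of the 18 or 19 alternatives run per input. At 100 pg the log2 change was 2.32 ± 0.17 (adjusted p = 0.00028). Rpl12 had 1095 and 1361 CPM at 1 pg and 3807 and 4073 CPM at 100 pg, against 1111 and 1670 CPM at 10 ng (1.86 ± 0.25 at 100 pg and 1.59 ± 0.25 at 50 pg). Rps14 rose at 50 pg, 100 pg, 10 pg and 1 pg, with 1368 and 1492 CPM at 100 pg, against 488 and 630 CPM at 10 ng. Rplp1 (1.82 ± 0.35) and Rpl37 (2.31 ± 0.41) rose at 100 pg and Rps18 at 50 pg (1.14 ± 0.19), each losing its call under some alternatives, as did Rpl12 at 50 pg and 100 pg and Rps14 at 50 pg.

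At 10 pg the largest called rises were those of Rpl29 (3.10 ± 0.64), Rpl8 (2.71 ± 0.17), Rps24 (2.47 ± 0.63) and Rpl24 (2.40 ± 0.44), and at 1 pg those of the copy Rps4l (3.03 ± 0.72), Rpl8 (2.95 ± 0.17), Rps25 (2.72 ± 0.29) and Rpl24 (2.71 ± 0.45). Rps25, a small subunit protein needed by some viral internal ribosome entry sites, had 1628 and 2337 CPM at 1 pg, against 786 and 421 CPM at 10 ng. The 4 falls at 1 pg were in Rpl14, Rps10 (−2.22 ± 0.59), Rpl13a (−1.68 ± 0.38) and Rplp0 (−0.61 ± 0.19). Rpl29, Rps24 and Rpl24 at 10 pg kept their call in 9, 6 and 12 of 18 alternatives and Rps4l and Rplp0 at 1 pg in 14 and 6, while Rps10 and Rpl13a lost theirs in 2 and 1. Rpl14 had 4.68 and 2.23 CPM at 1 pg, or 2 counts and 1 count, against 96.8 and 81.7 CPM at 10 ng, a ratio of 0.0402 (95% counting interval 0.00827 to 0.118). The pair Rpl23 and Rpl23a stayed the highest or among the highest at every input, with Rpl23 at 8806 and 8692 CPM at 1 pg.

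The replicates of one input agreed least well at 1 pg and 10 pg. The SD over genes of the log2 ratio between technical replicates was 1.44 at 1 pg (58 ribosomal protein genes of at least 10 counts on average), 0.99 at 10 pg, 0.39 at 50 pg, 0.39 at 100 pg, 0.69 at 1 ng and 0.46 at 10 ng. For other genes of the same level range it was 3.32, 1.22, 0.53, 0.36, 0.21 and 0.29. The SD of 0.69 at 1 ng includes the copy Rpl10l, which had 1 and 43 counts there. Its log2 ratio of 5.08 in size was the largest at that input and weighs on the SD. In the method set the SDs were 0.09 to 0.12 for ribosomal protein genes in SMART-seq, 0.51 in DP-seq and 0.09 in standard RNA-seq. The 2 standard libraries at AA3 differed at 83 of these genes by no more than sampling noise (chi-square of 1.01 per gene, against 1.32 over 12110 genes of 20 counts or more), so for these genes they amount to 1 sample, and results that turn on that pair are also given without one of them.

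**Figure D4:**
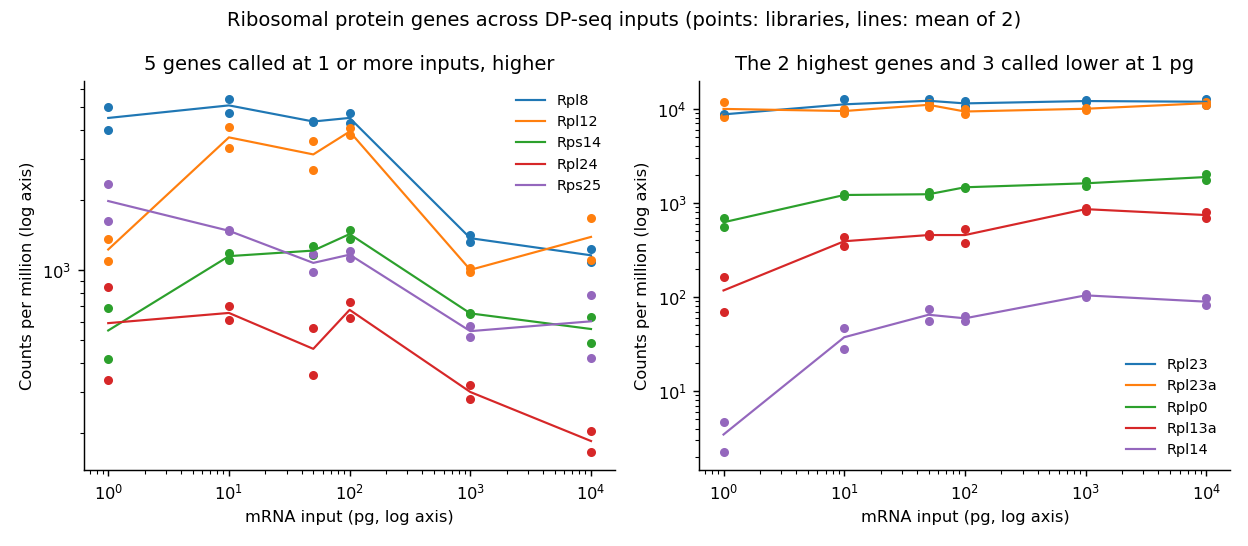
CPM (log axes) of 10 ribosomal protein genes against mRNA input in pg, for the 2 DP-seq libraries of each input (points) and their mean (lines). Rpl8 lies at 4004 to 5453 CPM at 100 pg and below and at 1083 to 1424 CPM at 1 ng and 10 ng, while Rpl14 drops to 2.23 and 4.68 CPM at 1 pg.

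Between activin at 100 ng/mL and at 3 ng/mL, each method taken alone left most ribosomal protein genes uncalled. Over the 3 methods, 42 of the 84 were called lower at least once and 8 higher at least once. Of all 14072 genes, 464 were called lower at least once and 494 higher at least once. The called ones were more often lower than higher at 100 ng/mL in each of the 3 methods. Of 84 genes, 3 rose and 21 fell in SMART-seq, 1 rose and 20 fell in DP-seq and 5 rose and 23 fell in standard RNA-seq, where 4.07%, 2.35% and 1.91% of all genes were called. Of all genes 1.86%, 1.29% and 1.12% were higher and 2.21%, 1.06% and 0.796% lower in these methods. The median log2 changes were −0.31, −0.33 and −0.37, beside −0.05, 0.01 and −0.02 for all genes. Small subunit genes had medians of −0.36, −0.47 and −0.37 and large subunit genes −0.28, −0.15 and −0.37. The libraries of the 3 methods do not overlap, although nothing says that they used separate RNA. In all 3, 36 of the 84 genes (42.9%) lay below 0 and 1 above, against 17.7% of all genes below and 16.8% above. Mitochondrial ribosomal protein genes had medians of −0.12, −0.16 and 0.10, and the biogenesis genes −0.04, 0.10 and 0.15. In bulk RNA a lower level per cell and a smaller share of cells with that level cannot be told apart.

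The calls leaned on single libraries, in fits for which no share of all genes is given. The swings are therefore not read as particular to these genes. Leaving out 1 library at a time gave 6 calls in SMART-seq without SMART-seq AA3 replicate 1, 9 in DP-seq without either SMART-seq AA3 library and 9 in standard RNA-seq (2 higher and 7 lower) without either standard AA3 library. The highest counts were 44 in SMART-seq and 34 in DP-seq, without DP-seq AA100 replicate 1, and 42 in standard RNA-seq, without either DP-seq AA100 library. With library totals 4 rose and 8 fell in SMART-seq, with a median of −0.18. Of all genes 3.49% were called in that scaling, with a median of 0.03. The 28S entry Rn28s1 moved with the dose in standard RNA-seq, at 262 CPM at AA100 and 12391 and 14743 CPM at AA3 (−5.68 ± 0.48), and was not called in SMART-seq or DP-seq; its part in the result was not tested.

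The 6 genes called lower in all 3 methods were Rpl9, Rpl15, Rpl36a, Rplp1, Rps14 and Rps18; 25 of all 14072 genes were. Rps14 had 6213 and 6512 CPM at AA100 and 8088 and 7999 CPM at AA3 in SMART-seq (−0.47 ± 0.08). In DP-seq it had 1208 and 1063 CPM at AA100 and 1733 CPM at AA3, and in standard RNA-seq 337 CPM at AA100, against 993 and 1005 CPM at AA3 (−1.55 ± 0.10). Rplp1 had 3338 and 3587 CPM at AA100, against 4218 and 4058 CPM, in SMART-seq, 114 and 105 CPM, against 170 CPM, in DP-seq, and 683 CPM, against 1432 and 1421 CPM, in standard RNA-seq. AA100 lay below AA3 for both genes in each method with no overlap. The dose set, with 1 library each, did not repeat this for Rps14, at 613 CPM at AA100 and 375 CPM at AA3. Rplp1 had 211 CPM at AA100 and 218 CPM at AA3 there. Among called genes the largest falls within a method were those of Rpl36a (−0.60 ± 0.07), Rpl31 (−0.52 ± 0.07), Rps14 and Rpsa (−0.47 ± 0.05) in SMART-seq, and Rps15 (−1.43 ± 0.14), Rps27l (−1.0 ± 0.11), Rps25 (−0.89 ± 0.12) and Rpl7a (−0.88 ± 0.11) in DP-seq. In standard RNA-seq they included those of Rpl39 (−2.66 ± 0.27), Rps14 and Rps21 (−1.37 ± 0.19).

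Rpl5 and Rpl11, which carry the smallest ribosomal RNA of the large subunit and can bind Mdm2 when unassembled, differed in outcome. Rpl11 fell in SMART-seq and DP-seq (−0.46 and −0.79) and had 1366 CPM at AA100 and 1318 and 1320 CPM at AA3 in standard RNA-seq. Rpl5 passed the test in none of the 3. Rpl3, an early-assembling protein near the peptidyl transferase centre, fell in SMART-seq and standard RNA-seq (−0.23 and −0.33), and Rpl4 was called in none. Rps3, at the mRNA entry, fell in SMART-seq and DP-seq (−0.43 and −0.42), and Rps6 in DP-seq (−0.75).

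Rpl14, a large subunit protein, rose in SMART-seq and DP-seq and fell in standard RNA-seq. In SMART-seq it had 7305 and 7271 CPM at AA100 and 1997 and 2040 CPM at AA3, a log2 change of 1.72 ± 0.05 (adjusted p = 1.5e-05). In DP-seq it had 78.1 and 81.1 CPM at AA100 and 33.1 CPM at AA3 (1.26 ± 0.07, adjusted p = 0.0014), but in standard RNA-seq 1044 CPM at AA100 and 1382 and 1358 CPM at AA3 (−0.38 ± 0.06, adjusted p = 0.023). In the dose set it had 69.3 CPM at AA100 and 48.7 CPM at AA3. Its rise in SMART-seq and DP-seq was called in each of the 14 alternatives. Rpl28 also rose in SMART-seq, to 1796 and 1986 CPM at AA100, against 940 and 921 CPM at AA3 (0.89 ± 0.08). In standard RNA-seq the rises were in Rps26 (3.02 ± 0.10), Rpl29 (1.25 ± 0.14), Rpl23 (1.03 ± 0.06), Rpl35 (0.55 ± 0.08) and Rpsa. Rps26 had 1087 CPM at AA100 and 133 and 137 CPM at AA3 in standard RNA-seq, while SMART-seq gave 570 and 585 CPM at AA100 and 629 and 614 CPM at AA3. Fau and Rack1 passed the test in none of the 3 methods.

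**Figure D5:**
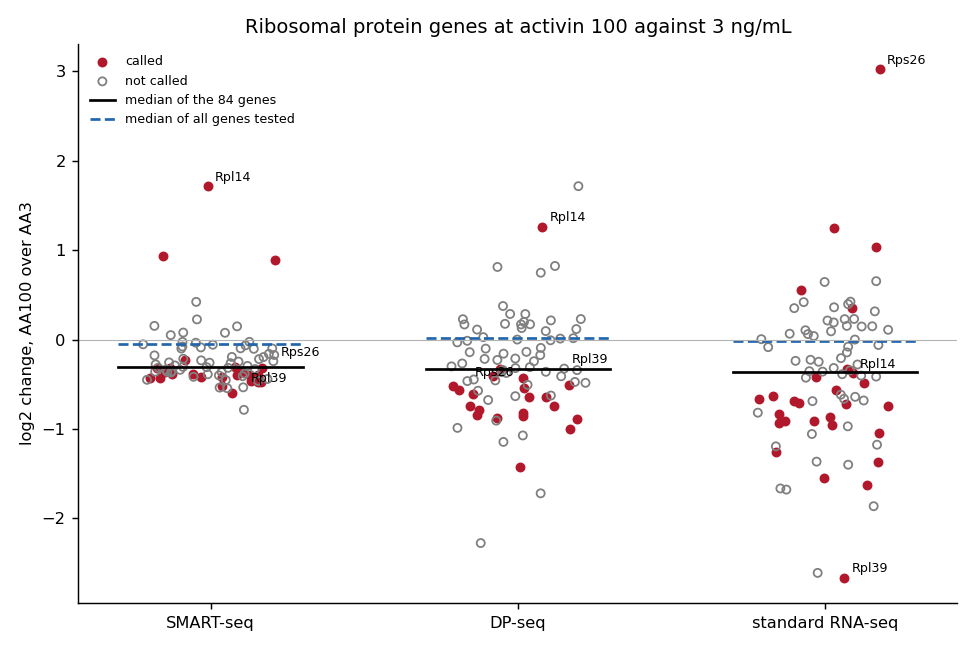
log2 change of the 84 ribosomal protein genes at activin 100 ng/mL over 3 ng/mL in SMART-seq, DP-seq and standard RNA-seq; each point is a gene, filled where it passed the test, with the medians of these genes (solid) and of all 14072 genes (dashed). The medians lie at −0.31, −0.33 and −0.37, and Rpl14 rises in SMART-seq and DP-seq but not in standard RNA-seq.

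The labels do not say whether the dose set, of other libraries, used separate RNA. It did not repeat the difference between AA100 and AA3. With 1 library each there is no test between them, but over 73 genes of at least 10 counts in each library of SFM, AA3, AA15 and AA100 the median log2 ratio of AA100 over AA3 was −0.04, with 40 genes below and 33 above 0 (−0.08 for 41 large and −0.02 for 32 small subunit genes). The SD over these genes was 0.38, and that between the AA15 technical replicates was 0.49.

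Against SFM no ribosomal protein gene of 82 was called in SB, AA3, AA15 or AA100, and no gene of 12180 was (0% background), with 1, 0, 1 and 1 of the 82 at unadjusted p under 0.05 and none called by DESeq2. In simulated data no change of up to 8-fold was recovered for AA15 against SFM, so the absence of calls carries no information about stability. The median changes were 0.33, 0.32, 0.58 and 0.43. They turned on the SFM libraries. Without SFM replicate 1 the medians were 2.06, 2.08, 2.22 and 2.12, and without SFM replicate 2 they were −0.11, 0.01, 0.07 and −0.03. Without SFM replicate 1, 64, 64, 68 and 65 genes passed for SB, AA3, AA15 and AA100, most of them higher than in SFM replicate 2, where 58.4%, 57.3%, 64.7% and 59.2% of all genes passed. Without SFM replicate 2 the counts were 3, 4, 9 and 9 of 81, beside 4.12%, 5.27%, 13.0% and 12.9% of all genes.

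SFM replicate 2 held 5.13% of its counts in these genes, and SFM replicate 1 held 8.62%. In replicate 2, 5 genes (Rps13, Rpl23, Rpl3, Rps3 and Rps6) made up 79.9% of the ribosomal protein counts. Rps13 had 11321 CPM there and 2546 CPM in SFM replicate 1, while Rps19 had 5.21 and 10066 CPM and Rps12 119 and 7962 CPM. The other 5 libraries of the set had 3606 to 4541 CPM of Rps13, 3848 to 9392 CPM of Rps19 and 7469 to 12486 CPM of Rps12. A part of the spiked-in transcripts in this was not tested.

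Along the activin doses, coded as 4 steps of equal size that began at SFM and ended at AA100, none of 81 ribosomal protein genes passed the slope test in edgeR (4 at unadjusted p under 0.05), where 0.397% of 12102 genes did, 0.149% higher and 0.248% lower with dose; DESeq2 called 1. The median slope was 0.18 per step and that of all genes 0.00; without SFM replicate 2 the median slope was 0.01. The gene DESeq2 called was Rps15a, a small subunit protein, with 136 and 155 CPM in SFM, 84.7 CPM in AA3, 57.7 and 65.0 CPM in AA15 and 47.2 CPM in AA100. Its levels were lower at each step without overlap, and SB had 39.9 CPM. The slope was −0.62 ± 0.14 per step (edgeR, adjusted p = 0.14, and DESeq2, adjusted p = 0.0048). It was −0.69 and −0.47 without SFM replicate 1 and 2, and −0.60 and −0.62 without AA15 replicate 1 and 2. Rps15a is among the 15 genes of low count, shares 8.10% of its words with other genes, and had 16.7 CPM or more in each library of the method set. There its log2 changes at AA100 over AA3 were −0.40 in SMART-seq, 0.18 in DP-seq and −0.64 in standard RNA-seq, none of them called. Rpl39l (−1.17 ± 0.41), Rpl23a (0.64 ± 0.30) and Rpl22 (0.66 ± 0.51) had the other outermost slopes and were not called. Without SFM replicate 2 the slopes of Rpl23a and Rpl22 were 0.35 and 0.24, not called, and Rpl39l was filtered out. Among the comparisons with SFM the outermost values, none of them called, were those of Rpl22l1 (3.51 ± 1.39) and Rps15a (−2.08 ± 0.69) in SB, Rps23rg1 (1.73 ± 2.38) and Rpl39l (−1.77 ± 1.53) in AA3, Rpl22 (2.08 ± 1.36) and Rpl39l (−3.08 ± 1.34) in AA15, and Rps23rg1 (1.82 ± 2.38) and Rpl39l (−2.71 ± 1.68) in AA100. Without SFM replicate 2, Rps15a was called lower in SB (−1.71, adjusted p = 6.0e-06 in edgeR) and Rpl22 higher in AA15 (1.16, adjusted p = 0.00026), while Rpl22l1 in SB (2.81) and Rps23rg1 in AA3 and AA100 (0.72 and 0.82) were not called.

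Rplp0, the core of the stalk and a common reference gene, had 525 and 435 CPM in SFM, 563 CPM in AA3, 646 and 637 CPM in AA15 and 848 CPM in AA100, and 362 CPM in SB. The order followed the dose, with a slope of 0.21 per step and of 0.26 without SFM replicate 2. The gene did not pass in edgeR's slope test. In the method set it ran the other way, with 989 and 1064 CPM at AA100 and 1210 CPM at AA3 in DP-seq and 1373 CPM at AA100, against 2142 and 2149 CPM at AA3, in standard RNA-seq.

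Among the copies, Rps23rg1, a retrogene of Rps23 kept by the naming rule, separated the dose set from the rest. It had 619 to 1062 CPM in 6 of the 7 dose libraries and 1.46 CPM in SFM replicate 2, while the 26 other libraries had 0 to 27.1 CPM. AA3 had 945 CPM in the dose set, against 2.57 and 1.16 CPM in the 10 ng libraries, which are also DP-seq of AA3. Rps23 itself stayed at 0 to 25.4 CPM throughout. Of the other paralogs, Rps27l and Rpl36al were well counted, at 244 and 245 CPM and 229 and 224 CPM in standard RNA-seq at AA3, and Rpl10l, Rpl22l1 and Rpl39l stayed under 1 CPM there.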

How the data were processed

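The authors deposited 1 table per library with, per the file headers, counts of unique reads for each of 26566 RefSeq transcripts. Tables that hold any of the 15 values that are not whole were treated as deposited estimated counts and rounded. Not given in the sources used here are the aligner, the counting rule, the use of strand, the RefSeq release and the genome build. Transcripts were named through RefSeq (25857) and GENCODE (150) tables and summed to 21844 genes; CPM are counts over the library total. Per the labels' protocols, mRNA was isolated before single-stranded cDNA was made.

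Counts were tested in edgeR 4.0.16 (R 4.3.3): filterByExpr by group (minimum count 10, minimum total 15), TMM scaling, robust quasi-likelihood fits over each set's libraries and Benjamini-Hochberg adjustment over all genes at 0.05. Values after ± are standard errors. Alternatives were no filter, DESeq2 1.42.0 and its size factors, TMM without ribosomal protein genes, library totals (added after seeing the data), the replicate number as a block, and leaving out each replicate. Named genes are up to 4 called genes with the largest rise and fall per comparison and at least 50 counts in the higher group (the 2 outermost each way where none was called), plus genes fixed for their role; a few others, such as Rps9, Rps12 and Rps23rg1, were chosen after their values were seen. A few genes that the naming rule picks are not reported here. The members, lists and rules were chosen with earlier results of these data known. Replicate numbers did not pair libraries in the dilution or method sets (correlations of deviations between −0.04 and 0.03). Shares have Wilson 95% intervals (scipy 1.17.1); these and the floor of 3 counts cover counting error only. Where a group held 1 to 3 counts of a gene, the ratio of pooled CPM is given with an exact Clopper-Pearson 95% interval in place of the fitted fold. Shared sequence was measured in 32-base words of GENCODE transcripts, and coding lengths came from the same annotation. On simulated data, 2-, 4- and 8-fold changes were recovered in 55.2%, 92.5% and 100% (primer set 1, 11559 genes), 0%, 0% and 15.2% (100 pg, 10817 genes), and 19.4%, 50.7% and 63.6% (SMART-seq at AA3, 14072 genes) of genes, with 10.3%, 0% and 5.3% of calls false. In the dose trend (12102 genes) the fold was set per dose step, not from SFM to AA100. Folds of 2, 4 and 8 per step were recovered in 38.8%, 98.5% and 100% of genes, with 4.2% of calls false. Recovery of smaller folds per step was not tested. Tables and figures were made in Python 3.11.15 (matplotlib 3.10.9, pandas 2.3.3, numpy 2.4.6).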

Additional observations from a re-analysis of the deposited data

Results flagged for a closer look

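The dose difference, AA100 over AA3, was compared between methods by a term for the difference itself, and 15 of 84 ribosomal protein genes differed between SMART-seq and standard RNA-seq and 19 between DP-seq and standard RNA-seq, where 0.853% and 0.739% of all 14072 genes did (edgeR, adjusted p under 0.05). With library totals the SMART-seq calls were 10 higher and 4 lower, in place of 8 and 7, where 0.519% of all genes were called. Both comparisons share the standard libraries. For SMART-seq minus standard RNA-seq the named differences included −3.27 for Rps26, −1.47 for Rpl29, −1.13 for Rpl23, −0.82 for Rpsa, 2.13 for Rpl39, 2.09 for Rpl14 and 1.08 for Rps14 on the log2 scale. For DP-seq minus standard RNA-seq they were −3.49 for Rps26, −1.82 for Rpl29, −1.28 for Rps15, −1.19 for Rpl7a, 2.34 for Rpl39, 1.64 for Rpl14, 1.15 for Rpl10 and 0.94 for Rpl22. The differences of Rps26 and Rpl14 passed in each of the 14 alternatives in both comparisons, and that of Rpl23 in each of the 14 for SMART-seq. The others lost their call in some alternatives. Leaving out 1 library gave 3 to 29 calls for SMART-seq and 2 to 31 for DP-seq, the fewest without a SMART-seq AA3 or standard AA3 library and the most without a DP-seq AA100 library. The single standard AA100 library enters all of them.

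The paired-end DP-seq library, made from about 100 pg of AA3 mRNA and used in no comparison, held 6.09% of its 5855969 counts in ribosomal protein genes. Rpl23a led with 12340 CPM, ahead of Rpl23 at 6297 CPM and Rpl17 at 6084 CPM, while Rpl13 had 1.71 CPM. It has no replicate and no control.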

How the results depend on the processing

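All 6 primer comparisons, the 4 comparisons of SMART-seq or DP-seq with standard RNA-seq and the 1 pg comparison kept their counts of called ribosomal protein genes within 1.5 times of those reported under every setting other than leaving out a replicate. Leaving out 1 library gave 64 to 71, 62 to 69 and 65 to 74 calls for primer sets 1, 2 and 3 against usual DP-seq, and 61 to 66, 63 to 67 and 63 to 68 for set 1 against 2, 1 against 3 and 2 against 3. It gave 76 to 83 and 80 to 82 for SMART-seq at AA3 and AA100, 56 to 70 and 65 to 71 for DP-seq at AA3 and AA100, and 0 to 2, 1 to 43, 1 to 31, 2 to 43 and 10 to 36 at 1 ng, 100 pg, 50 pg, 10 pg and 1 pg. For AA100 against AA3 it gave 6 to 44 in SMART-seq, 9 to 34 in DP-seq and 9 to 42 in standard RNA-seq, for the dose differences between methods 3 to 29 (SMART-seq) and 2 to 31 (DP-seq), for SB, AA3, AA15 and AA100 against SFM 0 to 64, 0 to 64, 0 to 68 and 0 to 65, and for the slope 0 to 1. Fits with fewer libraries also estimate the spread from fewer pairs; the cause was otherwise not tested.

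DESeq2 called 3, 26, 14 and 28 genes at 1 ng, 100 pg, 50 pg and 10 pg, 38 for AA100 against AA3 in DP-seq, 33 for the DP-seq dose difference minus the standard one and 1 for the slope. Its size factors in edgeR gave 4 at 100 pg and 2 at 50 pg. Without the 10 pg and 1 pg libraries in the fit, 13, 50 and 41 passed at 1 ng, 100 pg and 50 pg. Library totals gave 3, 1 and 10 at 100 pg, 50 pg and 10 pg and 12 for AA100 against AA3 in SMART-seq. Of all genes 0.545%, 0.555%, 12.8% and 3.49% were called in these fits. At 10 pg the 10 calls are 12.5% of the ribosomal protein genes, near the share of all genes. For the DESeq2 counts and most of the leave-one-out ranges no share of all genes is given here. The replicate number as a block, which pairs no libraries here, gave 12 calls at 10 pg, 5 at 100 pg and 20 in SMART-seq and moved no count by over 1.5 times; the SFM and AA15 numbers correlated at −0.20, and with that pairing crossed 0 genes were called in each dose comparison. Against the 1 ng libraries alone the medians for primer sets 1 and 2 were −1.24 and −1.10.

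Signs turned for Rps23 at 1 ng (−2.83 without DP-seq 1 ng replicate 1 and 3.31 without replicate 2) and for Rps3 in AA3 and AA15 against SFM (0.28 and 0.35 without SFM replicate 2, −2.22 and −2.16 without SFM replicate 1). Leaving out the paralogs lowered the share of counts by 0.0071 to 0.38 percentage points. At 1 pg, 1 count is worth over 2 CPM, so differences among low genes could not be seen there.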
